A study of Mus musculus with 8 samples.

Results

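Transcripts of 50 cell cycle and proliferation genes were followed in 8 tumors of the mouse neuroblastoma line Neuro-2a (N2A), 4 from mice treated with SR59230A and 4 from mice given vehicle. The genes were taken by name from a fixed list, with histones left out, and comprised 24 genes of the G1/S transition and DNA replication and 26 genes of G2 and mitosis, out of 35458 annotated genes, of which 15207 had enough reads to be tested. All 50 were among the tested genes. Tumors in both groups arose from 1000000 N2A cells placed under the skin of female A/J mice, a strain syngeneic with the line, and injections into the abdomen, given 2 times a day, began once a tumor could be felt. SR59230A blocks the β3-adrenergic receptor and was given at 10 mg/kg, and the vehicle was physiological solution. The mice were 4 weeks old when bought, and tumors were taken after 8 days of treatment under the general protocol. The host kept its own immune system, and whole tumors were sequenced, so a level is an average over tumor cells, vessels, stroma and immune cells. Fewer cells of a type and less RNA per cell cannot be told apart in such samples. All tumors descend from 1 cell line. Tumors are named by their labelled numbers, SR59230A 1 to 4 and vehicle 0 to 3. No source ties the numbers to separate experiments, and the p-values measure the spread between these 8 samples.

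A cell commits to division in G1, when cyclin D with Cdk4 or Cdk6, and then cyclin E with Cdk2, phosphorylate the retinoblastoma protein and release E2F factors, which switch on the genes for origin licensing and DNA synthesis. Genes of G2 and mitosis follow later, under the MuvB complex with B-Myb (Mybl2) and Foxm1, and are held off in resting cells by the DREAM complex. Because cells outside the cycle carry little of most of these transcripts, their joint level in a tissue is commonly read as a proliferation index. Mki67 and Top2a are the members best known from tumor pathology.

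Promoters are shown because the genes vary together across the tumors, as described below, and because the G1/S and G2/M genes carry known short elements at different shares. RefSeq promoter windows (GRCm38.p6), running 250 bases before to 50 bases after the start site, were found for 38 of the 50 genes, 19 of each phase. Both strands were searched for CHR (TTTGAA or TTCGAA), the element through which DREAM and MuvB bind, for the CCAAT box (CCAAT), which NF-Y binds, and for E2F sites (TTTGGCGC, TTTCGCGC, TTTCCCGC or TTTGCCGC). Matches could overlap, and TTCGAA reads alike on both strands. A CHR stood in 14 of 19 G2/M genes (73.7%), in 4 of 19 G1/S genes (21.1%) and in 21.7% of all 27025 genes with a window of this length. A CCAAT box stood in 17 G2/M genes (89.5%), 12 G1/S genes (63.2%) and 41.1% of all genes. An E2F site stood in 1 G2/M gene (5.26%), 9 G1/S genes (47.4%) and 2.6% of all genes. All 14 G2/M genes with a CHR also had a CCAAT box, a pair found in 8.61% of all genes. These matches are descriptions of the letters and not of bound sites.

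**Figure D1:**
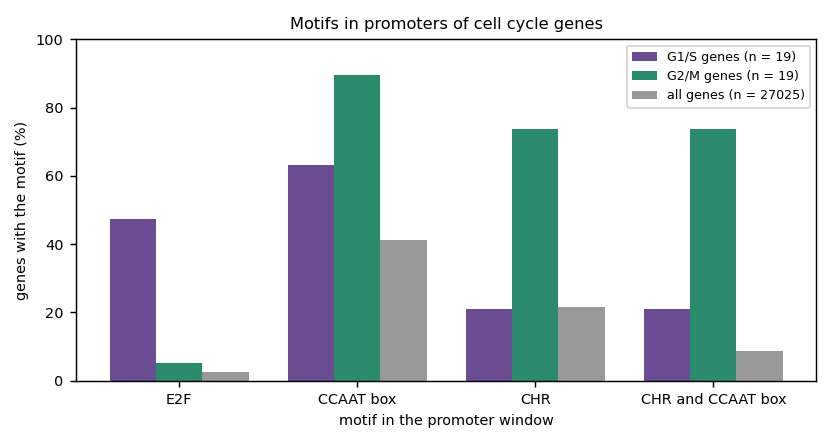
Share of genes (percent, y axis) with each motif in the promoter window (x axis), for the 19 G1/S genes, the 19 G2/M genes and all 27025 genes with a window. E2F sites were most frequent among G1/S genes (47.4%) and the pair of CHR and CCAAT box among G2/M genes (73.7%).

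The following 160 bases end just before the start site, run 5′ to 3′ on the strand of the gene, and have the matches of these motifs on either strand in capitals. Cdk1, Top2a, Cdc20 and Kif11 stand for the G2/M genes with both CHR and CCAAT box, Mcm6 and Mcm5 for the G1/S genes with E2F sites, and Cdk6 for the genes with no match. Cdk6 did not vary with the rest, and whether a missing match went with that was not tested. Mybl2, Birc5, Ccne1, Cdk4, E2f1 and Tyms had no match either. Their correlations with the mean of the other genes over the tumors were 0.96, 0.93, 0.90, 0.83, 0.72 and 0.40.
Cdk1 (chr10:69352913-69353072, minus strand): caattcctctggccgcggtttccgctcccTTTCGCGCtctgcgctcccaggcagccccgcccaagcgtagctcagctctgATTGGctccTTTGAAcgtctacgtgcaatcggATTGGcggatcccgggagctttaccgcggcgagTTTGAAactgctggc
Top2a (chr11:99024190-99024349, minus strand): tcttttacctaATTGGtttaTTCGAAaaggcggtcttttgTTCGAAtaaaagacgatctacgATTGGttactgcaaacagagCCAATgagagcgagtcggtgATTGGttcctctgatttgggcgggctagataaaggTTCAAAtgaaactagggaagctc
Cdc20 (chr4:118437344-118437503, minus strand): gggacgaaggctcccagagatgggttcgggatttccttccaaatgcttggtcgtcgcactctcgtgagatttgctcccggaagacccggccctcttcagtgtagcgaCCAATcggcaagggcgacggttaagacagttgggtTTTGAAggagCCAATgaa
Kif11 (chr19:37376222-37376381, plus strand): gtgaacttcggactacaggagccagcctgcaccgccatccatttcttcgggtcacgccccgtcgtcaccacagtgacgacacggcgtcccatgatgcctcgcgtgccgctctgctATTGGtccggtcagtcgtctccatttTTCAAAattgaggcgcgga
Mcm6 (chr1:128359706-128359865, minus strand): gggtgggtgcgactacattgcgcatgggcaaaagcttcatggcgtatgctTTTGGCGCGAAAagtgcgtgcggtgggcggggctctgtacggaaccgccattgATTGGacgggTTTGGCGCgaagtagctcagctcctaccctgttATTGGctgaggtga
Mcm5 (chr8:75109349-75109508, plus strand): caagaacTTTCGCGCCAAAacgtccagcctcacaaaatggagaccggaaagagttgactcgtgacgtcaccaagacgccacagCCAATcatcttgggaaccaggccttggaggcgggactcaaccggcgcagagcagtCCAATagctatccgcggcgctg
Cdk6 (chr5:3343733-3343892, plus strand): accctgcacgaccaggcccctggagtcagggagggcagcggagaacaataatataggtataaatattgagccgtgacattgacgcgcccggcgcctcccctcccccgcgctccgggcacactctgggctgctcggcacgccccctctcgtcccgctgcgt
Cdk1, the mitotic kinase, carried 2 CHR matches 71 and 15 bases before the start, next to CCAAT boxes on the opposite strand at 80 and 48 bases, and was the G2/M gene with an E2F match (131 bases before the start). In Kif11, a spindle motor, a single CHR lay 19 bases before the start with a CCAAT box at 45 bases. In Mcm6, a subunit of the replicative helicase, E2F matches began 110, 106 and 47 bases before the start, the first and second overlapping on opposite strands.

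The libraries held 23484190 to 44045575 estimated reads per tumor (median 31696174), of which the 50 genes took 0.287% to 0.702% in SR59230A tumors and 0.390% to 0.631% in vehicle tumors. Mitochondrially encoded transcripts took 1.54% to 7.47% of reads in SR59230A tumors and 1.30% to 6.11% in vehicle tumors, with the highest shares in SR59230A 3 and vehicle 3. All 13 neuroblastoma markers were detected in every tumor, with a summed level of 2364 to 3696 CPM (reads per 1000000 reads) in SR59230A tumors and 3323 to 4831 CPM in vehicle tumors. Skeletal muscle genes summed to 2332 CPM in SR59230A 1 and 193 CPM in SR59230A 2, against at most 30.1 CPM in the other SR59230A tumors and 9.41 CPM in vehicle tumors. The 10 listed T cell genes summed to 7.87 to 10.7 CPM in SR59230A tumors and 9.58 to 11.996 CPM in vehicle tumors. Of the 10, 5 had enough reads to be tested. The T cell markers Cd3d, Cd3e and Cd3g were each under 1 CPM in every tumor.

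Compared per length as TPM (transcripts per 1000000 transcripts) over protein-coding transcripts, the most abundant of the 50 were Top2a (mean level 173 TPM over 8 tumors), Cdk1 (156 TPM), Pcna (131 TPM), Ccnb1 (125 TPM), Cks2 (122 TPM), Cdk4 (107 TPM) and Ccna2 (106 TPM). Levels differed widely between tumors, and Cdk1 alone spread over 73.4 to 235 TPM in SR59230A tumors and 65.4 to 239 TPM in vehicle tumors. The order within these genes was not the same in every tumor. Cdk1 was above Top2a in vehicle 1 (205 against 197 TPM) and vehicle 2 (239 against 227 TPM), and below it elsewhere. It was above Pcna in every tumor. Among the D cyclins and their kinases 1 member of each pair prevailed. Cdk4 had 107 TPM and Cdk6 0.72 TPM, and Ccnd1 had 68.9 TPM and Ccnd2 1.15 TPM. Those ranges did not meet in any tumor. The lowest coding levels were 58.7 TPM for Cdk4 and 33.3 TPM for Ccnd1, and the highest were 1.27 TPM for Cdk6 and 2.24 TPM for Ccnd2. The E cyclins Ccne1 and Ccne2 lay closer, with means of 19.0 and 39.3 TPM. Their ranges met, with Ccne1 up to 28.5 TPM in vehicle 2 and Ccne2 down to 23.3 TPM in vehicle 0. For Cdk4, transcripts annotated as coding took only 34.6% of its reads and transcripts with a retained intron 46.2%, so its level over all transcripts (501 TPM) was far above its coding level. For Tyms, thymidylate synthase, the coding share was 48.8%, while 45 of the 50 genes had a coding share of at least 90%.

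Whether SR59230A changed the proliferation transcripts of the tumors was asked first. None of the 50 genes passed edgeR's quasi-likelihood test at an adjusted p under 0.05 with a log2 fold change of 0.5 or more in size, and adjusted p-values were 0.996 to 1.000. The same test called 0% of all 15207 genes. DESeq2 also called 0 of the 50, against 0.22% of all genes it tested. At an unadjusted edgeR p under 0.05, 0 of the 50 were higher and 0 lower in SR59230A tumors, against 2.22% and 2.42% of all genes. For 0 of the 50 did the groups separate completely, against 1.32% of all genes with every SR59230A tumor above every vehicle tumor and 1.29% with every one below.

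The fold changes of the 50 genes, SR59230A over vehicle, lay between -0.32 (Ccnd1) and 0.26 (Ccne2) on the log2 scale, and 47 were smaller than 0.25 in size, as were 72.7% of all genes. The median over all genes was -0.00 and the median standard error of a gene 0.18. Fold changes were positive for 16 of 24 G1/S genes (median 0.07), 23 of 26 G2/M genes (median 0.11) and 49.6% of all genes. Members of a phase vary together, so these signs are not independent of each other. The 95% confidence interval of every fold change held 0, and reached a median of 0.53 to either side. For 49 of 50 genes it stayed inside a 2-fold change in either direction, the exception being Cdk6 (-0.79 to 1.09). Single tumors set the direction. Without SR59230A 3 the fold changes of 48 of 50 genes were positive (medians 0.21 for G1/S and 0.28 for G2/M). Without SR59230A 1 only 22 were positive, and without vehicle 3 only 24. With SR59230A 1 and SR59230A 2 both left out, the tumors with muscle transcripts, 4 of 50 were positive and the G1/S median was -0.25.

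**Figure D2:**
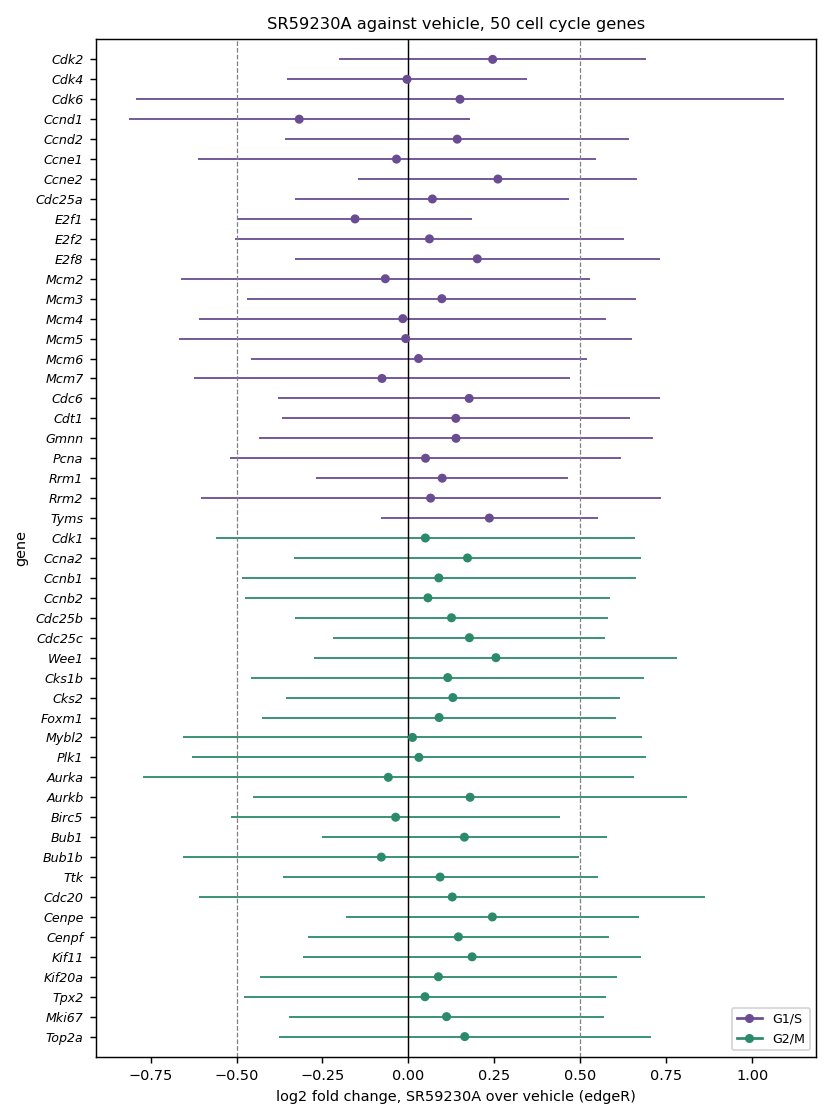
Log2 fold change of each of the 50 genes (x axis, SR59230A over vehicle, points) with its 95% confidence interval from edgeR (lines), genes down the y axis in the order of their roles. Dashed lines mark a log2 fold change of 0.5 in either direction; every interval crosses 0.

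Among the 8 G1 cyclins, kinases and phosphatases, fold changes were positive for 5 and negative for 3 (median 0.11). Ccnd1, a D-type cyclin and partner of Cdk4, had 163, 168, 104 and 135 CPM in SR59230A tumors 1 to 4, against 172, 212, 214 and 114 CPM in vehicle tumors 0 to 3. All SR59230A tumors lay below vehicle 0, 1 and 2, but 3 of them lay above vehicle 3. Its log2 fold change was -0.32 (standard error 0.22, 95% interval -0.81 to 0.18, edgeR adjusted p = 0.996), with p = 0.257 by exact two-sided permutation. Without vehicle 3 the log2 fold change was -0.48 and the unadjusted edgeR p fell under 0.05, as it did for 8.6% of all genes in that fit. Cdk4 had 246, 250, 195 and 200.02 CPM in SR59230A tumors, against 196, 248, 269 and 182 CPM in vehicle tumors. The groups overlapped throughout, and the log2 fold change was -0.00 (95% interval -0.35 to 0.34). Ccne2, a partner of Cdk2, had 87.6, 65.3, 53.2 and 54.4 CPM in SR59230A tumors, against 44.1, 50.9, 63.8 and 58.7 CPM in vehicle tumors. SR59230A 1 and 2 were above every vehicle tumor, and SR59230A 3 and 4 lay among them (log2 fold change 0.26, 95% interval -0.15 to 0.67; exact permutation p = 0.314).

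The 3 E2F genes gave fold changes of both signs. E2f1, the activator that drives entry into S phase, had 41.0, 43.5, 31.8 and 35.5 CPM in SR59230A tumors, against 42.6, 44.1, 50.02 and 32.5 CPM in vehicle tumors. Vehicle 2 was highest and SR59230A 3 lowest, and the groups overlapped (log2 fold change -0.16, 95% interval -0.50 to 0.19). E2f2 had a log2 fold change of 0.06, and E2f8, an atypical repressor that is itself an E2F target, 0.20.

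The 9 licensing genes comprise subunits of the Mcm helicase, the factors Cdc6 and Cdt1 that load it onto origins before S phase, and geminin (Gmnn), which blocks Cdt1. They had a median log2 fold change of 0.03, from -0.08 (Mcm7) to 0.18 (Cdc6). Mcm2 had 219, 184, 108 and 157 CPM in SR59230A tumors, against 149, 195, 243 and 114 CPM in vehicle tumors. SR59230A 3 and vehicle 3 stood together at the low end, SR59230A 1 and vehicle 2 at the high end, and the log2 fold change was -0.07 (95% interval -0.66 to 0.53). SR59230A 3 was the lowest tumor for the other Mcm subunits as well, with fold changes of -0.02 (Mcm4), -0.01 (Mcm5), 0.03 (Mcm6) and 0.10 (Mcm3). Of the 4 genes of DNA synthesis, Pcna, the sliding clamp of the polymerases, had 144, 135, 67.2 and 104 CPM in SR59230A tumors, against 94.1, 117, 143 and 79.9 CPM in vehicle tumors. The lowest and the highest value were both in SR59230A tumors, and the log2 fold change was 0.05 (95% interval -0.52 to 0.62). Tyms, which makes thymidylate, had 74.97, 60.5, 56.4 and 54.8 CPM in SR59230A tumors, against 45.4, 46.3, 57.2 and 60.8 CPM in vehicle tumors. It had the smallest unadjusted p of the 50 (edgeR, 0.127), with overlapping groups and a log2 fold change of 0.24 (95% interval -0.08 to 0.55).

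**Figure D3:**
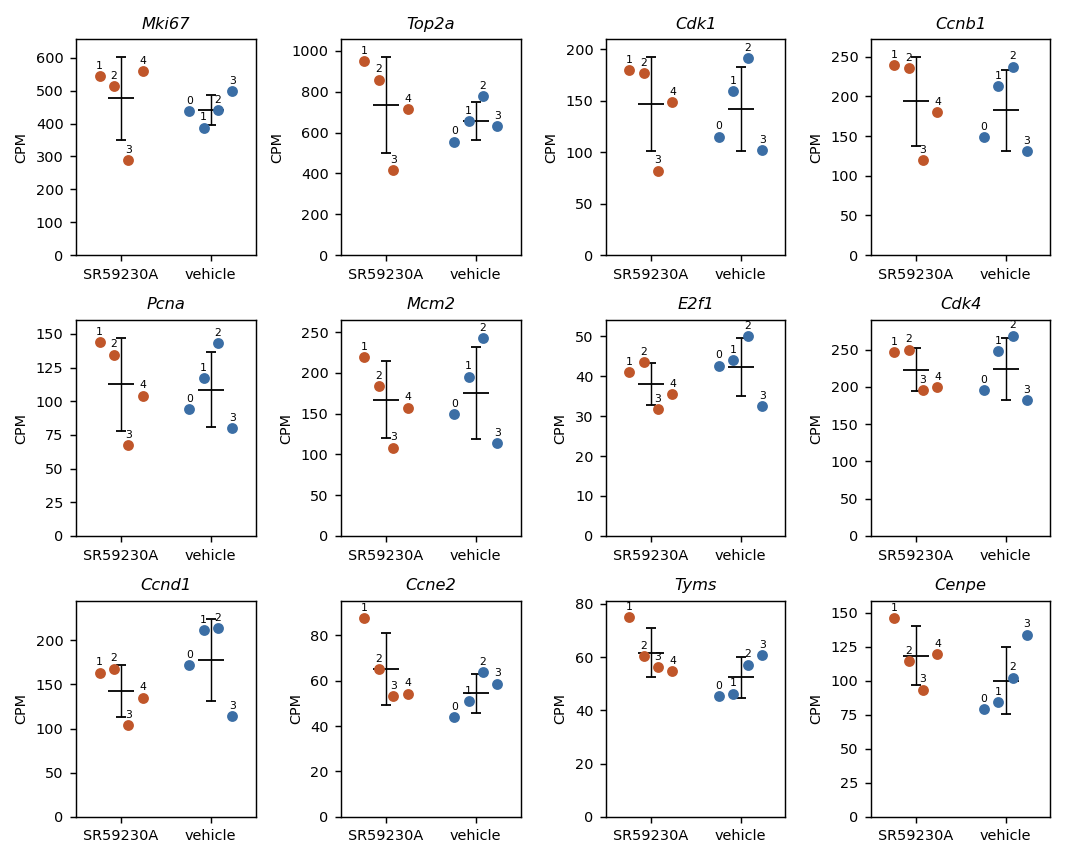
Level of 12 of the genes in each tumor (y axis, CPM after TMM scaling), SR59230A tumors at left and vehicle tumors at right, with the tumor number above each point, the mean as a horizontal mark and the SD as a bar (n = 4 each). The groups overlap in every panel, and SR59230A 3 is the lowest tumor for Mki67 (290 CPM), Top2a (416 CPM), Cdk1 (82.1 CPM) and Ccnb1 (120 CPM).

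All 9 genes of mitotic entry had positive fold changes, from 0.05 (Cdk1) to 0.25 (Wee1), none past the test. Cdk1 had 179, 177, 82.1 and 149 CPM in SR59230A tumors, against 115, 159, 191 and 102 CPM in vehicle tumors. Its regulatory subunit Ccnb1 had 239, 235, 120 and 180 CPM in SR59230A tumors, against 148, 213, 237 and 131 CPM in vehicle tumors. In both genes the SR59230A tumors held the lowest value and vehicle 2 was level with SR59230A 1 and 2, and the log2 fold changes were 0.05 (95% interval -0.56 to 0.66) for Cdk1 and 0.09 (-0.49 to 0.66) for Ccnb1. Wee1, the kinase that restrains Cdk1, had 34.3, 27.4, 17.0 and 24.3 CPM in SR59230A tumors, against 20.7, 24.6, 26.4 and 14.7 CPM in vehicle tumors. Only SR59230A 1 and 2 were above all vehicle tumors (log2 fold change 0.25, 95% interval -0.27 to 0.78). Cdc25c, the phosphatase that opposes Wee1, was the least abundant G2/M gene per length (5.96 TPM over coding transcripts), with 12.4, 11.5, 8.57 and 11.4 CPM in SR59230A tumors, against 7.77, 9.82, 11.8 and 9.42 CPM in vehicle tumors, and its groups overlapped as well (log2 fold change 0.18).

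The transcription factors Foxm1 and Mybl2 had log2 fold changes of 0.09 and 0.01. The mitotic kinase genes and Birc5 (survivin, a partner of Aurkb) lay on both sides of 0, at -0.06 for Aurka, -0.04 for Birc5, 0.03 for Plk1 and 0.18 for Aurkb. The spindle checkpoint genes ran from -0.08 (Bub1b) to 0.16 (Bub1). The 5 genes of spindle and kinetochore were all positive (0.05 for Tpx2 to 0.24 for Cenpe). Cenpe, a kinetochore motor, had 146, 115, 93.5 and 119 CPM in SR59230A tumors, against 79.2, 84.6, 102 and 134 CPM in vehicle tumors. SR59230A 1 was highest and vehicle 3, low for most of the 50, was the highest vehicle tumor, and its 95% interval was -0.18 to 0.67. Without vehicle 3 its log2 fold change was 0.42 and the unadjusted edgeR p fell under 0.05, as it did for 8.6% of all genes in that fit.

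Mki67, whose protein coats mitotic chromosomes, had 544, 514, 290 and 560 CPM in SR59230A tumors, against 437, 388, 442 and 500 CPM in vehicle tumors. SR59230A 1, 2 and 4 were above every vehicle tumor and SR59230A 3 was below every one, so the log2 fold change was 0.11 (95% interval -0.35 to 0.57; exact permutation p = 0.857) over all tumors and 0.28 without SR59230A 3, where the unadjusted edgeR p fell under 0.05, as it did for 4.14% of all genes. Top2a, which untangles replicated chromosomes, had 950, 859, 416 and 715 CPM in SR59230A tumors, against 556, 657, 779 and 632 CPM in vehicle tumors. Again SR59230A 3 was lowest and SR59230A 1 and 2 highest (log2 fold change 0.16, 95% interval -0.38 to 0.71; exact permutation p = 0.743).

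The spread of the 50 genes among tumors of 1 treatment exceeded the difference between treatments. After each gene was centred on its mean over 8 tumors, the mean of all 50 was 0.38, 0.26, -0.54 and 0.04 (log2 CPM) in SR59230A tumors 1 to 4, and -0.22, 0.05, 0.30 and -0.26 in vehicle tumors 0 to 3. The highest tumor exceeded the lowest 1.89-fold, and both were SR59230A tumors. The SR59230A mean was 0.07 above the vehicle mean, against an SD of 0.41 among SR59230A tumors and 0.26 among vehicle tumors. SR59230A 3 held the lowest level of 37 of the 50 genes, 15 of G1/S and 22 of G2/M. SR59230A 1 held the highest level of 28 genes and vehicle 2 of 18.

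**Figure D4:**
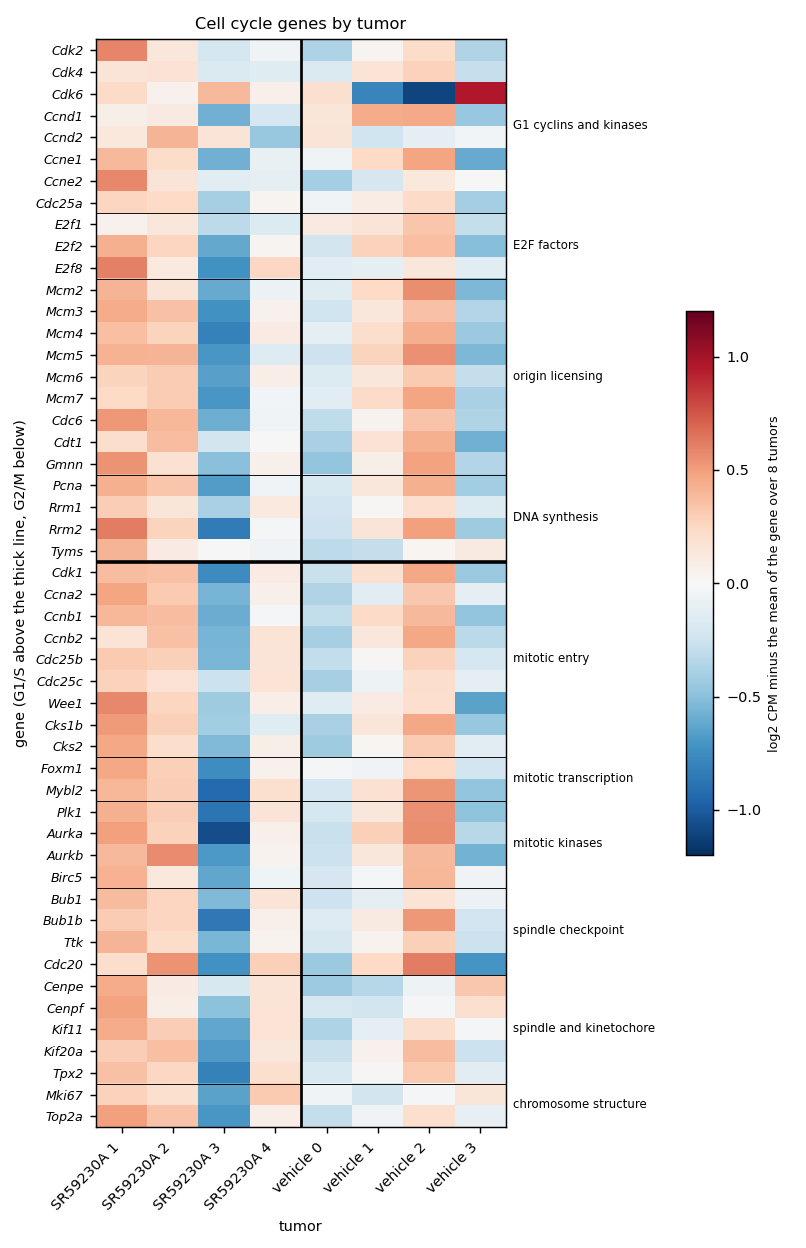
Heat map of the 50 genes (rows, grouped by role, G1/S above the thick line) in 8 tumors (columns, SR59230A left of the vertical line, vehicle right). Color is log2 CPM minus the mean of the gene over all tumors; the column of SR59230A 3 is the lowest for 37 genes, and the columns of SR59230A 1 and vehicle 2 are the highest for 28 and 18.

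G1/S and G2/M genes moved as 1 block. The G1/S mean and the G2/M mean correlated with r = 0.97 over the 8 tumors, and the median pairwise correlation was 0.83 among G1/S genes, 0.89 among G2/M genes (all 325 pairs positive) and 0.84 between the phases. The level of a gene correlated with the mean of the other 49 at a median r of 0.94, and 41 of 50 genes (82%) had an r of at least 0.8, against 8.42% of all tested genes. These points share their libraries and scaling factors and are given as a description. The closest followers were Ttk (r = 1.00), Mcm3, Cdc6 and Rrm2 (0.99 each). The G2/M mean spread 2.03-fold from the lowest to the highest tumor and the G1/S mean 1.74-fold, which was not tested. Single genes had a like range in both phases, with a median of 1.04 on the log2 scale in each. The G2/M mean minus the G1/S mean was 0.03, 0.05, -0.19 and 0.14 in SR59230A tumors 1 to 4, and -0.10, -0.04, 0.05 and 0.05 in vehicle tumors 0 to 3, so SR59230A 3 and SR59230A 4 stood at the opposite ends.

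The genes that did not follow the block were mostly G1 regulators and long transcripts. Cdk6 ran the other way (r = -0.55 with the mean of the other genes), and Ccnd2 was unrelated to it (-0.06), both at low levels. Cenpe (0.39), Tyms (0.40), Mki67 (0.65), Ccne2 (0.67), Cenpf (0.67), Ccnd1 (0.69) and E2f1 (0.72) followed it loosely. Cdk4 followed (0.83) but with the smallest range of all, 0.56 on the log2 scale between its lowest and highest tumor, where the median gene had 1.04 and Aurka 1.62. Among those that departed, Cdk6, Cenpf, Mki67, Cenpe and Ccnd2, were also the 5 with the longest transcripts weighted by reads. Their mean departure from all 50 genes was -0.07, -0.09, 0.38 and 0.01 in SR59230A tumors 1 to 4, and 0.15, -0.41, -0.56 and 0.58 in vehicle tumors 0 to 3. Over the 50 genes the correlation of log length with this departure ran from -0.60 in vehicle 2 to 0.53 in vehicle 3. Over 14364 protein-coding genes the correlation of log length with the centred level was -0.19 in vehicle 2, -0.16 in vehicle 1, 0.17 in vehicle 3 and 0.21 in vehicle 0, and nearer to 0 in each SR59230A tumor.

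Properties of the libraries varied along with the G2/M mean. Over the 8 tumors it correlated with the mitochondrial share of reads (Pearson r = -0.77, Spearman rho = -0.45), the share in olfactory receptors (r = -0.69, rho = -0.52), the share in retained-intron transcripts (r = -0.57, rho = -0.48) and the number of reads (r = 0.61, rho = 0.64). The ranks thus gave weaker relations than the values for the first 3, in which SR59230A 3 lay at or near an end. SR59230A 3, the lowest tumor, had the fewest reads and the highest mitochondrial share (7.47%), and vehicle 3, the next lowest, the second highest (6.11%). SR59230A 1 went against this, with the highest member mean at a mitochondrial share of 3.61%. The gene with the most reads in every tumor, Noct, took 16.96% of reads in SR59230A 3. In the other tumors it took from 7.58% (vehicle 2) to 10.3% (SR59230A 2). Summed marker levels correlated with the G2/M mean at r = -0.54 for endothelial, -0.52 for macrophage, -0.45 for neuroblastoma, -0.42 for T cell, 0.01 for erythroid, 0.02 for fibroblast and 0.47 for skeletal muscle genes. Sums are carried by the most abundant genes, and gene by gene the sign turned for some lists. The median r of single genes with the mean of the 50 was 0.32 for 13 neuroblastoma genes (4 below 0), 0.38 for 10 macrophage genes (4 below 0), -0.27 for 10 endothelial genes (8 below 0) and -0.25 for 10 fibroblast genes (7 below 0). Macrophage genes summed to 363, 349, 553 and 425 CPM in SR59230A tumors 1 to 4, and to 228, 301, 267 and 538 CPM in vehicle tumors 0 to 3, with SR59230A 3 and vehicle 3 highest. With each macrophage gene centred and weighted equally, their means were instead 0.35, 0.22, 0.29 and -0.26 in SR59230A tumors, and -0.46, -0.06, -0.14 and 0.06 in vehicle tumors. By that measure SR59230A 1 was highest, so the sum and the equal weighting put different tumors first. Between treatments, log2 fold changes were positive for 9 and negative for 1 of 10 macrophage genes (median 0.32). They were positive for 1 and negative for 12 of 13 neuroblastoma genes (median -0.40). No gene of either list passed the edgeR test. The part of these properties in the order of the tumors was not tested.

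**Figure D5:**
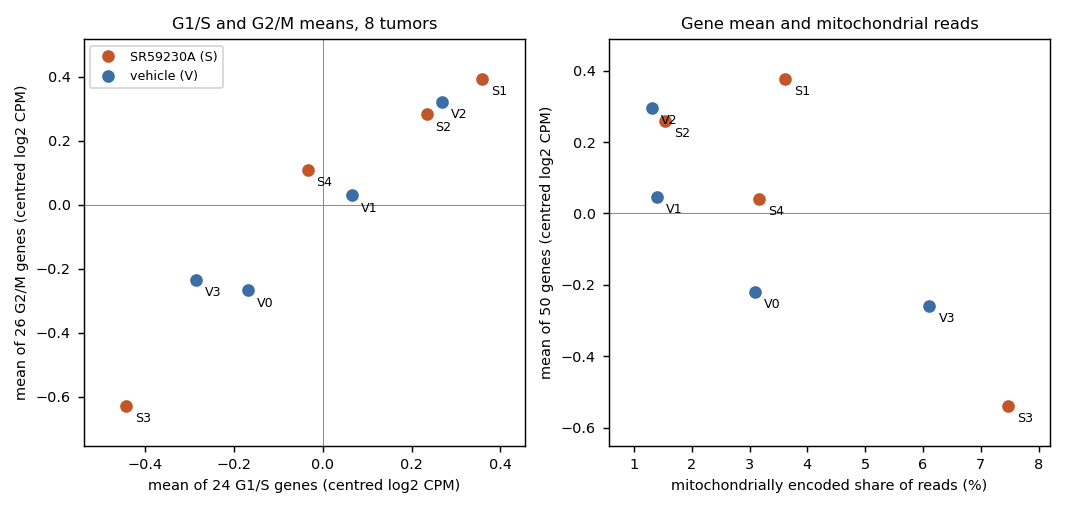
Left, mean of the 26 G2/M genes against mean of the 24 G1/S genes (both centred log2 CPM), 1 point per tumor; right, mean of all 50 genes against the mitochondrially encoded share of reads (percent). S and V with a number name the SR59230A and vehicle tumors; the left panel follows a line (r = 0.97) with SR59230A 3 at the low end and SR59230A 1 at the high end.

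Outside the 50, further genes of the cycle were counted. Of 30 other replication genes, 0 passed the edgeR test, 22 had positive fold changes (median 0.07) and 24 had an r of at least 0.8 with the mean of the 50. E2f7, an atypical E2F like E2f8, had the smallest unadjusted p of them (edgeR, 0.014), with a log2 fold change of 0.43 and 42.3, 36.8, 29.1 and 40.7 CPM in SR59230A tumors, against 25.9, 23.9, 30.5 and 30.4 CPM in vehicle tumors. Of 34 other mitotic genes, 0 passed, 31 had positive fold changes (median 0.15) and 27 reached that r. Over all genes 49.6% of fold changes were positive. Most of these replication and mitotic genes vary with the 50, so their signs are not independent of those of the 50. Kif15, a spindle motor, was at 65.0, 51.7, 46.8 and 52.5 CPM in SR59230A tumors, against 38.3, 37.4, 47.3 and 49.3 CPM in vehicle tumors, a log2 fold change of 0.33.

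Of 18 tested genes that brake the cycle, 3 had an r of at least 0.8 with the mean of the 50, 14 had positive fold changes (median 0.08) and 0 passed the test. At an unadjusted edgeR p under 0.05, 3 were higher (Ccng1, Rbl1 and Cdkn1a) and 1 was lower (Btg2), against 2.22% and 2.42% of all genes. Ccng1, a p53 target, had 77.2, 67.7, 73.2 and 77.8 CPM in SR59230A tumors, against 48.8, 56.6, 63.0 and 57.8 CPM in vehicle tumors. Every SR59230A tumor was above every vehicle tumor, by a log2 fold change of 0.39 (standard error 0.10, unadjusted edgeR p = 0.004, edgeR adjusted p = 0.996; exact permutation p = 0.0286, the smallest that 4 against 4 allow). Cdkn1a, which encodes the Cdk inhibitor p21 and is also a p53 target, had 17.95, 17.0, 21.8 and 22.8 CPM in SR59230A tumors, against 13.9, 16.1, 16.6 and 17.2 CPM in vehicle tumors. SR59230A 2 overlapped with vehicle 3, and the log2 fold change was 0.32 (edgeR adjusted p = 0.996). Rbl1, which encodes p107, a relative of the retinoblastoma protein, had 41.0, 36.9, 29.3 and 42.5 CPM in SR59230A tumors, against 25.7, 26.8, 31.97 and 31.9 CPM in vehicle tumors. SR59230A 3 lay among the vehicle tumors, and the log2 fold change was 0.36 (edgeR adjusted p = 0.996). Btg2, an antiproliferative gene that p53 also induces, had 18.4, 26.1, 29.1 and 23.8 CPM in SR59230A tumors, against 43.6, 37.3, 28.7 and 38.8 CPM in vehicle tumors. Only SR59230A 3 lay above the lowest vehicle tumor, and the log2 fold change was -0.61 (standard error 0.17, unadjusted edgeR p = 0.005, edgeR adjusted p = 0.996; exact permutation p = 0.0571). Cdkn1b, which encodes p27, and Cdkn2a, which encodes p16 and Arf, had log2 fold changes of -0.02 and 0.08, and Cdkn1c was under 0.5 CPM in every tumor and was not tested.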

How the data were processed

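The labels and the study's methods describe whole-tumor total RNA, stranded libraries with ribosomal RNA removed, and quantification with Salmon against a GRCm38 transcriptome (the submitters' notes name GRCm39). The authors deposited, for each tumor, expected counts (estimated reads), TPM and lengths per transcript. A second deposited file gives normalized counts from DESeq2 (a signal made comparable between libraries by the authors); it holds 15 of the 50 genes and served only as an alternative. Of 116747 transcripts, 115685 (99.1%) matched GENCODE M21 by identifier; the rest held 0.353% to 0.455% of reads. Estimated counts were summed per gene and rounded. SR59230A (n = 4) was compared with vehicle (n = 4) in edgeR 4.0.16 (R 4.3.3) with TMM, filterByExpr, a quasi-likelihood test and p-values adjusted by Benjamini-Hochberg over all genes tested. Single genes were compared by exact two-sided permutation of log2 CPM over 70 assignments. Alternatives used DESeq2 1.42.0, limma 3.58.1, other scaling, filters and units, a replicate block and left-out tumors; the fit on protein-coding transcripts alone was added after the values were seen. The edgeR fit was tested on simulated counts.

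The 50 genes and the other lists were chosen with earlier results of these data known. Values per tumor were given for Mki67, Top2a, Cdk1, Ccnb1, Pcna, Mcm2, E2f1, Ccnd1 and Cdk4, for the 3 genes of each phase with the smallest unadjusted p, for the highest and lowest fold change, and for listed genes outside the 50 by smallest unadjusted p; Cdkn1a, Cdkn1b, Cdkn1c and Cdkn2a were always named. With 4 tumors a group, the 95% intervals of log2 fold changes reached a median of 0.53 to either side.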

Additional observations from a re-analysis of the deposited data

Results flagged for a closer look

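In 2 of 104 groups of 4 tumors examined (the 50 genes and both phase means in both treatments), 1 tumor stood apart from the other 3 by Dixon's criterion; chance alone gives about 1 in 20. Mki67 was at 290 CPM in SR59230A 3, against 514 to 560 CPM in the other SR59230A tumors. E2f8 was at 28.0 CPM in vehicle 2, against 23.2 to 23.6 CPM in the other vehicle tumors.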

How the results depend on the processing

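No setting gave a called gene among the 50. The count at an unadjusted p under 0.05 was 1 with a replicate block over tumors numbered 1, 2 and 3 (Ccnd1; 5.63% of all genes in that fit), 5 in tumors numbered 1 and 2 only (Cdk6, Ccnd1, Tyms, Mki67 and Cenpe; 7.79% of all genes) and 2 without vehicle 0, vehicle 3 and SR59230A 4 (Cdk6 and Ccnd1; 7.17%). It ran from 0 to 4 when single tumors were left out, with 4 without SR59230A 3 (E2f8, Mki67, Bub1 and Kif11; 4.14%) and 2 without vehicle 3 (Ccnd1 and Cenpe; 8.6%). The G1/S median was -0.25 without SR59230A 1 and 2, and ran from -0.05 to 0.21 without single tumors; the G2/M median was -0.21 without SR59230A 1 and 2 and -0.070 without vehicle 0, vehicle 3 and SR59230A 4, and ran from 0.00 to 0.28 without single tumors. With the replicate block 25 of 50 fold changes were positive, with medians of -0.0042 (G1/S) and 0.0055 (G2/M); 25 were positive in tumors other than those numbered 1 and 2, and 17 without vehicle 0, vehicle 3 and SR59230A 4.

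Signs of small fold changes turned. Cdk4 was at 0.047 with a length offset, 0.0051 with no filter on low counts and 0.13 on the TPM scale with limma at pseudocounts of 1 and 0.1, and Mcm2 at 0.013 and 0.014 on those scales. With the replicate block Mki67 was at -0.018, Cdk1 at -0.079, Pcna at -0.010 and Cdk4 at 0.00023. In tumors other than those numbered 1 and 2, Mki67 was at -0.15, Top2a at -0.083, Pcna at -0.033, Mcm2 at 0.0041, Cdk4 at 0.057 and Cenpe at -0.011. Without vehicle 0, vehicle 3 and SR59230A 4, Cdk1 was at -0.25, Ccnb1 at -0.17 and Pcna at -0.17. Without SR59230A 1 and 2, Mki67 was at -0.056, Top2a at -0.22, Cdk1 at -0.30, Ccnb1 at -0.28, Pcna at -0.34, Ccne2 at -0.017 and Wee1 at -0.065. Leaving out single tumors moved Cdk1 between -0.080 and 0.24, Ccnb1 between -0.042 and 0.26, Pcna between -0.090 and 0.23, Mcm2 between -0.23 and 0.13 and Cdk4 between -0.091 and 0.098, and turned no other of the 14 genes followed. The cause was not tested.

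Over all genes tested, the deviations of same-numbered tumors correlated at 0.04, 0.67 and 0.57 for numbers 1, 2 and 3, and over the 50 genes at 0.21, 0.65 and 0.52. No label says that a number marks a shared batch, so the numbers were not taken as pairs in the main fit. A fit with the number as a block was an alternative. Numbers 2 and 3 correlated more strongly than number 1, both over all genes and over the 50. The depth left all 50 genes with enough reads to be tested, and the spread between 4 tumors a group limits the precision.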
